A study of Mus musculus with 7 samples.

Results

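Neuronal activity-induced immediate early genes were followed across hippocampal RNA-seq libraries of CD1 mice. The set holds 41 genes, chosen by symbol as known rapid and delayed activity-induced genes, and all 41 were found among the 55416 gene identifiers of the count tables. Of these, 28 were classed as rapid, 12 as delayed, and Jund, whose message is present at a steady level in most cells, as neither. All mice were males of the outbred CD1 stock, matched in age, and the age itself is not given in the sources used here. The control group (3 libraries, replicates 1 to 3) received no injection. The ONX-0914 group (2 libraries, replicates 1 and 2) received intraperitoneal injections of ONX-0914, an inhibitor of the immunoproteasome, at 10 mg/kg, 2 times per week for 2 months. The DMSO group (2 libraries, replicates 2 and 3) received the solvent by the same route and schedule. Therefore, DMSO against control compares injected with uninjected mice, and ONX-0914 against DMSO compares injections with and without the inhibitor. The study asked how long inhibition of this proteasome form affects synaptic plasticity and gene expression in the hippocampus. The titles give replicate numbers only, so p-values measure the spread between these libraries.

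Immediate early genes are transcribed within minutes of synaptic activity, without new protein synthesis. Calcium entering through glutamate receptors and voltage-gated channels activates kinases that phosphorylate factors already bound at the promoters, among them CREB at cAMP response elements and SRF with its partners at serum response elements. Many of the rapid genes encode transcription factors, which then act on delayed genes, and others encode proteins of the synapse or inhibitors of the kinases that induced them. In the hippocampus, these genes are widely used as markers of recently active neurons.

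The promoters of several members carry the sequence that CREB recognises, and 6 are printed here, 5 of them of transcription factors whose values are described below and that of Scg2 because it holds the full element. Each is the stretch of 250 bases just before the transcription start in RefSeq (GRCm38.p6), 5′ to 3′ on the strand of the gene. Capitals mark TGACG and its reverse complement CGTCA, the half-site of the cAMP response element.
Fos (chr12:85473640-85473889, + strand): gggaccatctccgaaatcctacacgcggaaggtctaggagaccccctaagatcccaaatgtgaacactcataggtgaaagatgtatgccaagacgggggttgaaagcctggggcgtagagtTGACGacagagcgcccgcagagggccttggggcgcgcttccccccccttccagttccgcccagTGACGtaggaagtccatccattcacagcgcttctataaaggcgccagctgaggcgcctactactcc
Fosb (chr7:19310046-19310295, - strand): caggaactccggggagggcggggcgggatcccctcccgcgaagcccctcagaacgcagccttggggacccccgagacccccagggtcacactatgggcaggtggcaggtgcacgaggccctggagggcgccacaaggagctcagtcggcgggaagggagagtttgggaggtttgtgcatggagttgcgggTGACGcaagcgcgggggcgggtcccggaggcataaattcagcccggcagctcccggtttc
Junb (chr8:84978749-84978998, - strand): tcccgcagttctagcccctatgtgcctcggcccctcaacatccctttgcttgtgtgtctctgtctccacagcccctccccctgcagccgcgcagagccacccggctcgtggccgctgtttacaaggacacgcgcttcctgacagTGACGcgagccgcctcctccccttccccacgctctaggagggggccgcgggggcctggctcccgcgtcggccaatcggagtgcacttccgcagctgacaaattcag
Nr4a1 (chr15:101266596-101266845, + strand): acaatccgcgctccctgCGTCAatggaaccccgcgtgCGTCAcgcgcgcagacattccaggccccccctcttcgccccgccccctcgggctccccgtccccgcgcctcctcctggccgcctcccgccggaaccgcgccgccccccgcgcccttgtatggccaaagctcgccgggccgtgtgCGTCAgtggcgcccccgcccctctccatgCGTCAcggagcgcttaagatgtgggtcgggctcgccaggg
Npas4 (chr19:4989972-4990221, - strand): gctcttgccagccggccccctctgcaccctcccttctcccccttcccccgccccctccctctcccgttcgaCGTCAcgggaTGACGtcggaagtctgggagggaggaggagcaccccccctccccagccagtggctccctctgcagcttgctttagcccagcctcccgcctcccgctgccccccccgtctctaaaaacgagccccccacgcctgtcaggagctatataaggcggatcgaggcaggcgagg
Scg2 (chr1:79440027-79440276, - strand): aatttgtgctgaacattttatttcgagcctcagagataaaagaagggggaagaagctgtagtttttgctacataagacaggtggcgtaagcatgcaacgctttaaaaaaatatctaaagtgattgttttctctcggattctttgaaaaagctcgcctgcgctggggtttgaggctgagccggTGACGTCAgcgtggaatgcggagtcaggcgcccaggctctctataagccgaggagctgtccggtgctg
In the Fos promoter the first bases of the 2 half-sites lay 129 and 66 bases before the start, and in that of Fosb the only half-site lay 60 bases before it. The Nr4a1 promoter held 4 half-sites, all written as CGTCA, at 233, 213, 69 and 40 bases. The Npas4 promoter held 2, at 179 and 169 bases, on opposite strands. In Scg2 the half-sites at 68 and 65 bases overlap and form the full palindrome TGACGTCA. None of these 6 windows held a CArG box, the core of the serum response element. Sequence further upstream was not searched, so a box beyond the 250 bases would be missed.

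RefSeq promoters were matched for 31 of the 41 members. Trib1, Nptx2, Dusp4, Vgf, Egr1, Egr3, Sik1, Ier2, Klf10 and Arc had no entry. The half-site TGACG, searched on both strands, occurred in 21 of the 31 (67.7%) and in 19.8% of the 27025 genes in the table. It was found in 15 of 21 rapid members (71.4%) and in 6 of 9 delayed members (66.7%). The full TGACGTCA, which contains the half-site on both strands, occurred in 5 members (Maff, Dusp1, Plk2, Btg2 and Scg2; 16.1%) and in 1.77% of all genes. A CArG box was present in Egr2 and Dusp5 (6.45%, against 1.62% of all genes), and the AP-1 motif TGANTCA in Csrnp1 alone (3.23%, against 7.82%). A gene with several starts was counted once if any window matched. These matches describe letters in a window and say nothing about binding in these mice.

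The total count on genes ranged from 2842675 to 3877006 in 6 libraries and reached 13782270 in ONX-0914 replicate 2. Both ONX-0914 libraries stood apart from the rest in their tissue markers. In ONX-0914 replicate 1 the summed level of 10 markers of hippocampal neurons was 391 CPM (counts scaled to a common library size, as in all levels given here), against 1212 to 1264 in control and 1268 to 1282 in DMSO libraries. The same library had 1218 CPM of 9 striatal markers (175 to 251 in the other libraries) and 1192 CPM of 11 thalamic and midbrain markers (102 to 159). ONX-0914 replicate 2 had 1088 CPM of hippocampal neuron markers, 1135 CPM of 8 CA3 markers and 839 CPM of 6 blood markers. On these lists replicate 1 stood apart as well, with 1591 CPM of CA3 markers (2951 to 3200 in control and DMSO libraries) and 97.4 CPM of blood markers (30.0 to 46.4). A single marker, Chgb, gave 2124 to 2241 CPM of the CA3 sum in control libraries and 785 and 641 CPM in ONX-0914 replicates 1 and 2. Of the 8 CA3 markers, 1 was above the control mean in each ONX-0914 library. These were Prkcd in replicate 1 (315 CPM) and Bok in replicate 2 (55.6 CPM). Prkcd is also on the list of thalamic and midbrain markers, so its level counts in both sums. No marker of hippocampal neurons was at 0 in any library, and of the thalamic and midbrain markers none was at 0 in ONX-0914 replicate 1, while 1 to 4 were at 0 in the others. The part of these differences in the results on activity-induced genes was not tested, and the members described at length are given by their values in the single ONX-0914 libraries. In tissue RNA, fewer cells of a type and less RNA per cell cannot be told apart.

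**Figure D1:**
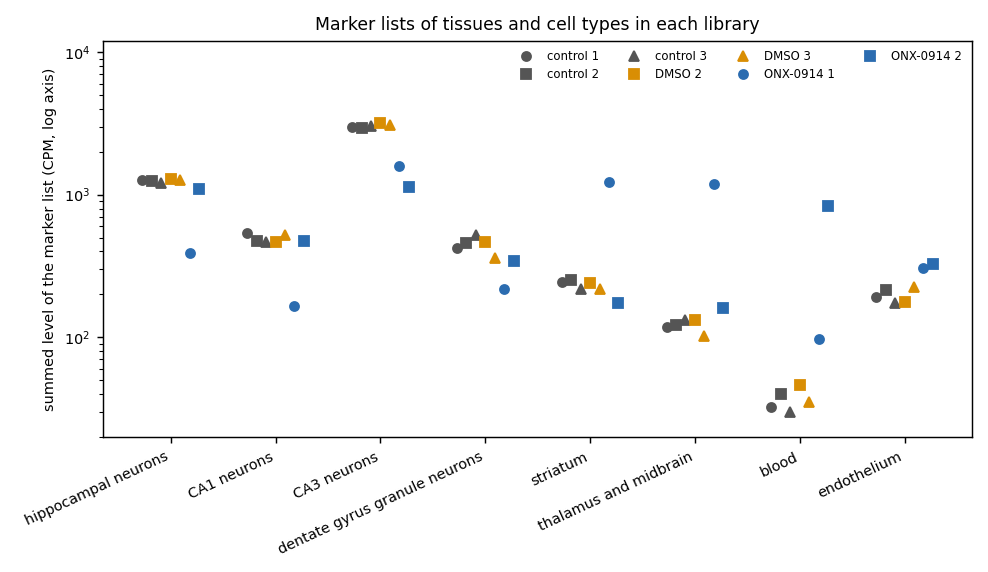
Summed level of each marker list (vertical axis, CPM on a log scale) in the 7 libraries, with 8 lists along the horizontal axis and 1 point per library. ONX-0914 replicate 1 lies at 391 CPM for hippocampal neurons and at 1218 and 1192 CPM for striatum and for thalamus and midbrain, and ONX-0914 replicate 2 lies at 839 CPM for blood.

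Members differed widely in level. Per kilobase of exon, the control means ran from 163 CPM for Scg2 and 146 for Vgf, precursors of secreted neuropeptides, through 33.3 for Jund, 32.7 for Plk2, 31.7 for Arc, 22.4 for Jun and 18.6 for Egr1, down to 3.04 for Fos, 0.59 for Npas4 and 0.12 for Egr2. Hence, 34 members had at least 10 counts in every library, and Egr2 and Atf3 had 3 counts or fewer in at least 1. After the filter on low counts, 40 of the 41 members were tested among 13152 genes. Atf3, a stress-inducible bZIP factor, was left out, with 3, 4 and 0 counts in control, 15 and 2 in DMSO and 0 and 31 in ONX-0914 libraries. All members together took 0.192% to 0.216% of the counts in control libraries, 0.301% and 0.265% in DMSO libraries, and 0.210% and 0.223% in ONX-0914 libraries. Scg2 and Vgf weigh heavily in this share. They held 2594 and 2643 of 8097 member counts in ONX-0914 replicate 1, and 3075 and 3149 of 30790 in replicate 2. The pooled share therefore does not describe the other members.

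**Figure D2:**
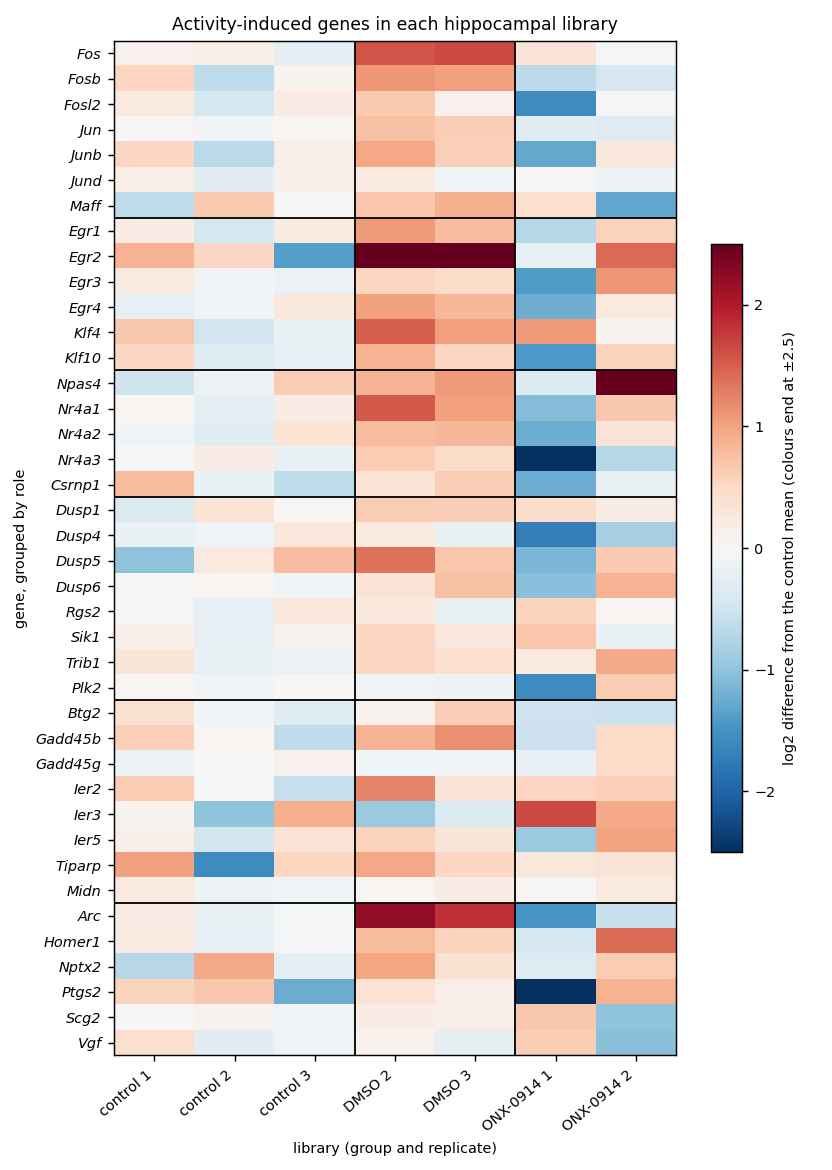
Log2 difference of each tested member (rows, 40 genes grouped by role) from the control mean in each of the 7 libraries (columns), with red for higher and blue for lower. The DMSO columns are mostly red, with median differences of 0.67 and 0.54, the ONX-0914 replicate 1 column is mostly blue (median -0.48) and the ONX-0914 replicate 2 column is mixed (median 0.29).

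In DMSO libraries most members were higher than in control libraries. The Log2FC was above 0 for 36 of 40 members (49.5% of all genes), with a median of 0.62, while the median over all genes tested was -0.00. Both DMSO libraries lay above all 3 control libraries for 25 of 40 members (62.5%), against 15.7% of all genes tested, and below them for Plk2 alone, against 15% of all genes. The share of counts on mitochondrial genes was 1.59% in both DMSO libraries, against 0.818% to 1.24% in control and 1.55% and 3.71% in ONX-0914 libraries, and the median over members was also 0.62 with those genes left out. The members with the largest Log2FC were Egr2, Arc, Fos, Klf4 and Nr4a1. In ONX-0914 libraries the members had no common direction against control: 24 of 40 had a Log2FC above 0 (53.8% of all genes), with a median of 0.08 (0.05 over all genes). Against DMSO, 31 of 40 members were lower in ONX-0914 libraries and 9 higher (53.8% of all genes were higher), with a median of -0.61 (0.05 over all genes), and the difference for Arc passed the FDR threshold. Both medians depended on single ONX-0914 libraries: without replicate 1 they were 0.25 against control and -0.48 against DMSO, and without replicate 2 they were -0.59 and -1.46. Both treated groups are compared with the same control libraries and with each other, so these comparisons share libraries. For 15 of 40 members, beside 6.26% of all genes tested, both DMSO libraries lay above all 5 other libraries: Fos, Fosb, Jun, Junb, Maff, Egr1, Egr2, Egr4, Nr4a1, Nr4a2, Nr4a3, Dusp1, Dusp5, Gadd45b and Arc.

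Arc (ENSMUSG00000022602) encodes a synaptic protein that regulates the removal of AMPA receptors from the membrane and whose message is carried into dendrites. Its level was 107, 88.9 and 95.3 CPM in control replicates 1 to 3, 448 and 345 CPM in DMSO replicates 2 and 3, and 34.5 and 66.0 CPM in ONX-0914 replicates 1 and 2. Thus, the 3 groups did not overlap, with DMSO highest and ONX-0914 lowest. The group means were 96.9 ± 8.97 CPM (SD, n = 3) in control, 396 ± 72.8 (n = 2) in DMSO and 50.2 ± 22.3 (n = 2) in ONX-0914 libraries. Against control, Arc was 4.09-fold higher in DMSO libraries (Log2FC 2.03, SE 0.269, FDR 0.187 by edgeR's quasi-likelihood test with Benjamini-Hochberg adjustment). It was 7.80-fold lower in ONX-0914 than in DMSO libraries (Log2FC -2.96, SE 0.318, edgeR FDR 0.0371). With edgeR on all 7 libraries after the filter on low counts, no other member passed in any of the 3 comparisons, beside 0.0456% of all genes in ONX-0914 against DMSO. The Arc call was lost when any 1 of the 5 control and DMSO libraries was left out (edgeR FDR 0.182 to 0.398), with total counts in place of TMM (FDR 0.0564) and with only the ONX-0914 and DMSO libraries (FDR 0.738), while without ONX-0914 replicate 1 or 2 the Log2FC was -2.60 or -3.53 and passed. Against control, the Log2FC in ONX-0914 libraries was -0.93 (SE 0.281, edgeR FDR 0.162).

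Of the other synaptic and secreted effectors, Homer1 (ENSMUSG00000007617) encodes a scaffold of metabotropic glutamate receptors. The count covers the whole gene and does not separate the short activity-induced form from the long one. Homer1 stood at 84.9, 69.5 and 75.2 CPM in control, 132 and 112 in DMSO and 55.9 and 200.3 in ONX-0914 libraries. It was therefore higher in both DMSO libraries than in any control library (Log2FC 0.68, SE 0.434), while the ONX-0914 libraries lay on either side of both groups. Nptx2 (ENSMUSG00000059991), a secreted pentraxin that clusters AMPA receptors, had 21.4, 46.1 and 26.4 CPM in control, 59.0 and 38.6 in DMSO and 23.7 and 46.4 in ONX-0914 libraries, so that each group overlapped the others.

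Scg2 (ENSMUSG00000050711), the precursor of secretoneurin, had 411, 424 and 392 CPM in control, 465 and 457 in DMSO and 653 and 203 in ONX-0914 libraries. Vgf (ENSMUSG00000037428), a precursor of peptides released with neurotransmitter, had 519, 377 and 409.8 CPM in control, 462 and 368 in DMSO and 665 and 208 in ONX-0914 libraries. Both precursors were above every other library in ONX-0914 replicate 1 and below every other library in ONX-0914 replicate 2, so their ONX-0914 means (428 ± 318 and 437 ± 323 CPM, SD, n = 2) stand for neither library. In DMSO libraries the Log2FC was 0.17 (SE 0.400) for Scg2 and -0.07 (SE 0.421) for Vgf. Ptgs2, the inducible cyclooxygenase, ranged from 11.6 to 28.6 CPM in control and from 23.6 to 26.8 CPM in DMSO libraries, with 2.27 and 38.5 CPM in ONX-0914 libraries.

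Fos and Jun proteins pair to form AP-1, a transcription factor that opens enhancers in active neurons. Fos (ENSMUSG00000021250) had 7.49, 7.63 and 6.33 CPM in control, 22 and 23.2 in DMSO and 9.06 and 7.0 in ONX-0914 libraries. DMSO libraries were thus 3.16-fold above control (Log2FC 1.66, SE 0.250, edgeR FDR 0.313), and ONX-0914 libraries were close to control (Log2FC 0.14, SE 0.258). Fosb (ENSMUSG00000003545), whose truncated product accumulates with repeated activity, had 16.8, 9.54 and 13.5 CPM in control, 27.9 and 26.8 in DMSO and 8.05 and 9.52 in ONX-0914 libraries. Here the ONX-0914 libraries lay below all others, although by as little as 9.52 against 9.54 CPM. The Log2FC of Fosb was 1.05 (SE 0.269) in DMSO and -0.56 (SE 0.279) in ONX-0914 libraries, both against control.

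Jun (ENSMUSG00000052684), the main partner of Fos, had 72.4, 69.0 and 72.7 CPM in control, 119 and 109.9 in DMSO and 59.4 and 57.0 in ONX-0914 libraries. All 3 groups were separate, and the Log2FC was 0.68 (SE 0.151) in DMSO against control and -0.98 (SE 0.167, edgeR FDR 0.10) in ONX-0914 against DMSO. Junb (ENSMUSG00000052837), a partner with weaker activation, had 42.1, 24.0 and 35.5 CPM in control, 64.9 and 50.3 in DMSO and 13.3 and 39.6 in ONX-0914 libraries, so that only the DMSO libraries stood apart. Junb lies opposite Prdx2, a more abundant gene in every library, and the strand setting of the counts is not given in the sources used here. Of the remaining factors of this group, Fosl2 was highest in DMSO replicate 2 (103 CPM), Maff had between 5 and 16 counts in each library, and Jund ranged from 48.5 to 64.4 CPM over all 7 libraries. Over the 7 tested AP-1 and related bZIP factors, all 7 had a positive Log2FC in DMSO against control (median 0.77) and all 7 a negative one in ONX-0914 against DMSO (median -1.08).

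**Figure D3:**
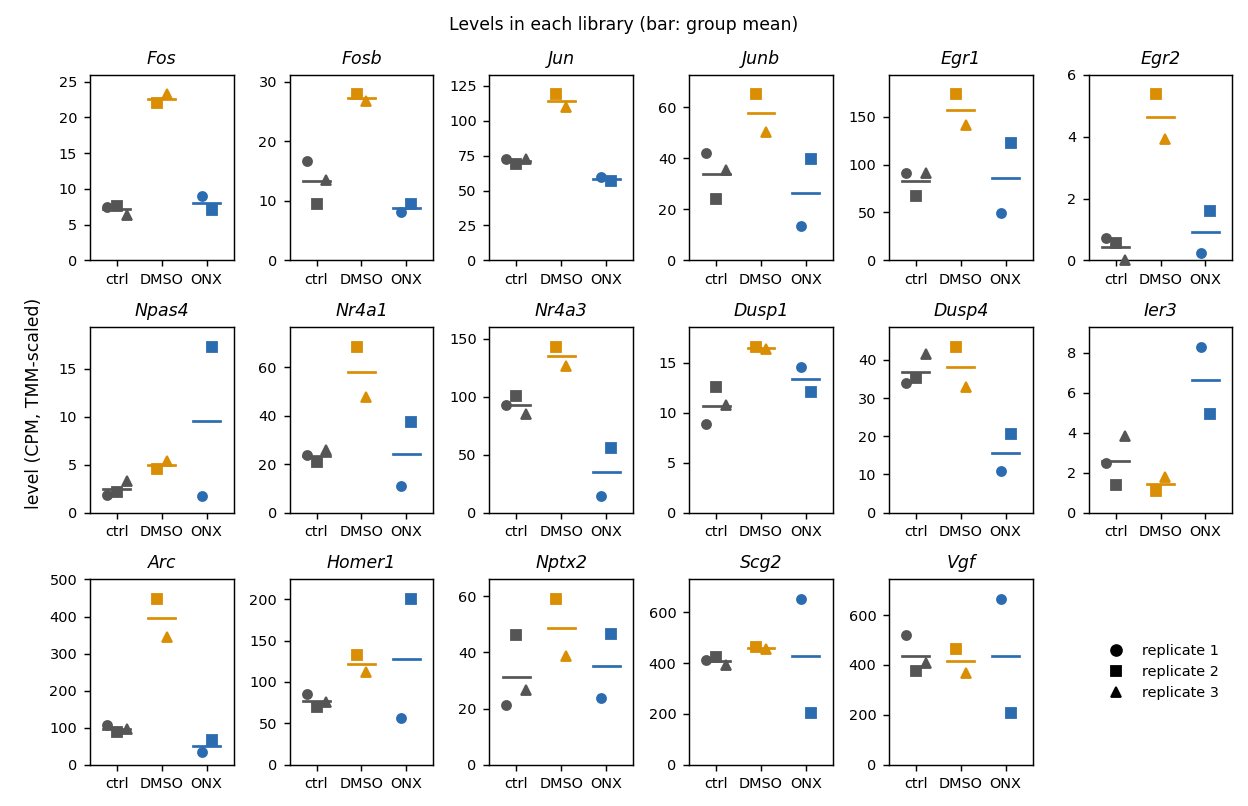
Level in CPM (vertical axis, from 0) of 17 members in the control (ctrl), DMSO and ONX-0914 (ONX) libraries. Points are single libraries, their shape gives the replicate number, and horizontal bars are group means. For Fos, Jun and Arc the DMSO points lie clear of all others (22 and 23.2, 119 and 109.9, and 448 and 345 CPM), while for Homer1, Scg2 and Vgf the ONX-0914 points lie on either side of the control points.

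The EGR and KLF members are zinc-finger transcription factors, and Egr1 is among the genes most used to map neuronal activity. Egr1 (ENSMUSG00000038418) had 90.9, 67.1 and 91.7 CPM in control, 173 and 142 in DMSO and 49.8 and 123 in ONX-0914 libraries. The DMSO libraries were above all others (Log2FC against control 0.92, SE 0.343, edgeR unadjusted p = 0.0270), and the ONX-0914 libraries lay below and above the control range. Egr2 (ENSMUSG00000037868) was close to the limit of detection, with 2, 2 and 0 counts in control, 20 and 11 in DMSO and 1 and 24 in ONX-0914 libraries, the last at several times the depth. From the pooled counts, DMSO was 12 times control (95% exact interval 4.24 to 46.8, counting error only). Egr3, Egr4, Klf4 and Klf10 were also above all control libraries in both DMSO libraries. This makes 6 of 6 factors in this group, against 15.7% of all genes tested, with Log2FC from 0.50 (Egr3) to 3.49 (Egr2). In ONX-0914 replicate 1, 5 of the 6 were below the control mean, whereas in ONX-0914 replicate 2 all 6 were above it.

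Npas4 and the NR4A nuclear receptors are induced in neurons by calcium entry. Npas4 (ENSMUSG00000045903), a factor that acts on inhibitory synapses, had 1.78, 2.18 and 3.30 CPM in control (5 to 12 counts), 4.56 and 5.35 in DMSO and 1.76 and 17.3 in ONX-0914 libraries. Its level in ONX-0914 replicate 2 (262 counts) was 9.83 times that in ONX-0914 replicate 1, and the Log2FC of 2.09 in ONX-0914 against control (SE 0.770, edgeR FDR 0.214) rests on that library. Nr4a1 (ENSMUSG00000023034) had 23.9, 21.0 and 25.6 CPM in control, 68.4 and 47.8 in DMSO and 10.8 and 37.5 in ONX-0914 libraries. It was 2.48-fold higher in DMSO than in control libraries (Log2FC 1.31, SE 0.434, edgeR unadjusted p = 0.0161). Nr4a3 (ENSMUSG00000028341) had 92.7, 100.1 and 84.5 CPM in control, 143 and 126 in DMSO and 14.3 and 55.8 in ONX-0914 libraries, and was thus separate in all groups, with DMSO above and ONX-0914 below all control libraries. Its Log2FC was -1.36 (SE 0.457, edgeR FDR 0.187) in ONX-0914 against control and -1.90 (SE 0.493, edgeR FDR 0.185) against DMSO. Nr4a2 was at 40.8 and 42.1 CPM in DMSO libraries, above 20.7 to 27.5 CPM in control, and Csrnp1 overlapped between these groups.

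Most of the 8 signalling brakes dephosphorylate or otherwise restrain the kinases and receptors that induce immediate early genes. Dusp1 (ENSMUSG00000024190), a phosphatase of MAP kinases, had 8.91, 12.5 and 10.7 CPM in control, 16.6 and 16.4 in DMSO and 14.6 and 12.1 in ONX-0914 libraries. DMSO was above both other groups (Log2FC against control 0.61, SE 0.251), by less than for Arc or Fos, and Dusp1 shares its locus with Ergic1 on the opposite strand. Dusp4 (ENSMUSG00000031530), a nuclear phosphatase of the same family, had 33.9, 35.2 and 41.6 CPM in control, 43.5 and 32.8 in DMSO and 10.8 and 20.6 in ONX-0914 libraries. Both ONX-0914 libraries were below all others, and the Log2FC was -1.19 against control (SE 0.294, edgeR FDR 0.127, the lowest of any member in this comparison) and -1.24 against DMSO (SE 0.316, edgeR FDR 0.180). Dusp5, Dusp6, Sik1 and Trib1 were above all control libraries in both DMSO libraries, Rgs2 overlapped, and Plk2, a kinase that weakens synapses after prolonged activity, was slightly lower (139 and 135 CPM against 141 to 150.1 CPM). Plk2 then had 48.8 and 229 CPM in the ONX-0914 libraries, outside the range of the other 5 libraries on both sides.

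Among the 8 growth and stress response genes, Ier3 (ENSMUSG00000003541), a stress-inducible regulator of cell survival, had a pattern opposite to that of most members. Ier3 had 2.5, 1.36 and 3.86 CPM in control (5 to 14 counts), 1.07 and 1.78 in DMSO (4 and 5 counts) and 8.31 and 4.96 in ONX-0914 libraries (33 and 75 counts). It was therefore highest in the ONX-0914 libraries, and the only member whose ONX-0914 libraries both lay above the DMSO libraries. The Log2FC was 1.29 against control (SE 0.479, edgeR FDR 0.218) and 2.16 against DMSO (SE 0.617, edgeR FDR 0.214). Gadd45b, a stress sensor linked to DNA demethylation in neurons, had 11.8 and 14.6 CPM in DMSO libraries, above 4.68 to 8.56 CPM in control, and Ier5 was also above. Btg2, an antiproliferative gene, was at 18.1 and 17.8 CPM in ONX-0914 libraries, below 22.6 to 31.0 CPM in control. Gadd45g, Ier2, Tiparp and Midn overlapped between DMSO and control.

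The test across all genes gave few calls among members. In DMSO against control, edgeR's quasi-likelihood test called 0 of 40 members at an FDR of 0.05, beside 0.0152% of all genes tested. At an unadjusted p under 0.05 there were 11 members, all 11 of them rapid and all higher in DMSO, beside 1.48% of all genes in that direction and 1.17% in the other. DESeq2 called 1 member, Arc, beside 0.0186% of all genes. When only the control and DMSO libraries were compared, without the spread of the ONX-0914 libraries, edgeR called 14 of 39 members, all higher in DMSO, beside 1.11% of 12688 genes. They were Fos, Fosb, Jun, Junb, Egr1, Egr2, Egr3, Egr4, Klf4, Nr4a1, Nr4a2, Nr4a3, Arc and Homer1, of which 11 are rapid and 3 delayed. In that comparison the Log2FC ranged from 0.51 for Egr3 (SE 0.118, edgeR FDR 0.0366) to 3.46 for Egr2 (SE 0.704, edgeR FDR 0.0156), and was 2.04 for Arc (SE 0.116) and 1.65 for Fos (SE 0.232, edgeR FDR 0.000458). The same 14 members were called without ONX-0914 replicate 1 (0.955% of all genes) and without ONX-0914 replicate 2 (1.07%). With group means fitted, a lone ONX-0914 library adds nothing to the spread, which again came from the control and DMSO libraries. These fits are therefore no separate test of the 14 calls. The marker sums of hippocampal neurons were 1268 and 1282 CPM in DMSO and 1212 to 1264 CPM in control libraries. Both DMSO libraries were above all control libraries in the sums of oligodendrocyte markers (7798 and 9199 against 4997 to 7500 CPM) and microglia markers (334 and 374 against 290 to 311 CPM). Of the 8 single microglia markers, 5 lay above all controls in both DMSO libraries, as did 4 of the 8 oligodendrocyte markers and 15.7% of all genes tested. The part of these differences in the result was not tested.

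In ONX-0914 against control, edgeR called 0 of 40 members, beside 0.114% of all genes tested, and DESeq2 called 2, both lower, beside 1.35% of all genes. At an unadjusted p under 0.05, Ier3, Npas4 and Trib1 were higher and Arc, Dusp4 and Nr4a3 lower, beside 10.6% and 8.04% of all genes. Both ONX-0914 libraries lay above all controls for Trib1, Ier2 and Ier3 (7.5% of members, against 16.9% of all genes) and below them for Fosb, Jun, Nr4a3, Dusp4, Btg2 and Arc (15%, against 16.3%). Neither share exceeded the background. In ONX-0914 against DMSO, 14 members were lower and Ier3 was higher at an unadjusted p under 0.05 by edgeR, beside 6.65% and 8.08% of all genes. Both ONX-0914 libraries lay below both DMSO libraries for 20 of 40 members (50%, against 19.7% of all genes) and above them for Ier3 (20.8% of all genes). This comparison uses the DMSO libraries in which the members were high.

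The 2 ONX-0914 libraries differed from each other in these genes more than any other pair of one group. ONX-0914 replicate 2 differed from ONX-0914 replicate 1 by at least 2-fold in 23 of 40 members (57.5%), against 25.2% of all genes tested, and was the higher one in 19 of the 23. The median difference over members was 0.94 on the log2 scale, and -0.01 over all genes. Leaving aside Egr2, with 1 count in replicate 1, the largest differences toward replicate 2 were those of Ptgs2 (16.98-fold), Npas4 (9.83-fold), Egr3 (5.85-fold), Plk2 (4.68-fold) and Klf10 (4.26-fold). Maff, Scg2, Vgf and Klf4 were at least 2-fold higher in replicate 1. By contrast, the DMSO libraries differed by 2-fold in 0 of 40 members (4.14% of all genes), and pairs of control libraries in 2 to 4 of 40 (3.79% to 4.52%). The lowest value of all 7 libraries was in ONX-0914 replicate 1 for 22 of 40 members (55%), against 18.0% of all genes, and the highest was in a DMSO library for 25 (21.2% of all genes) and in a control library for none (27.5% of all genes).

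**Figure D4:**
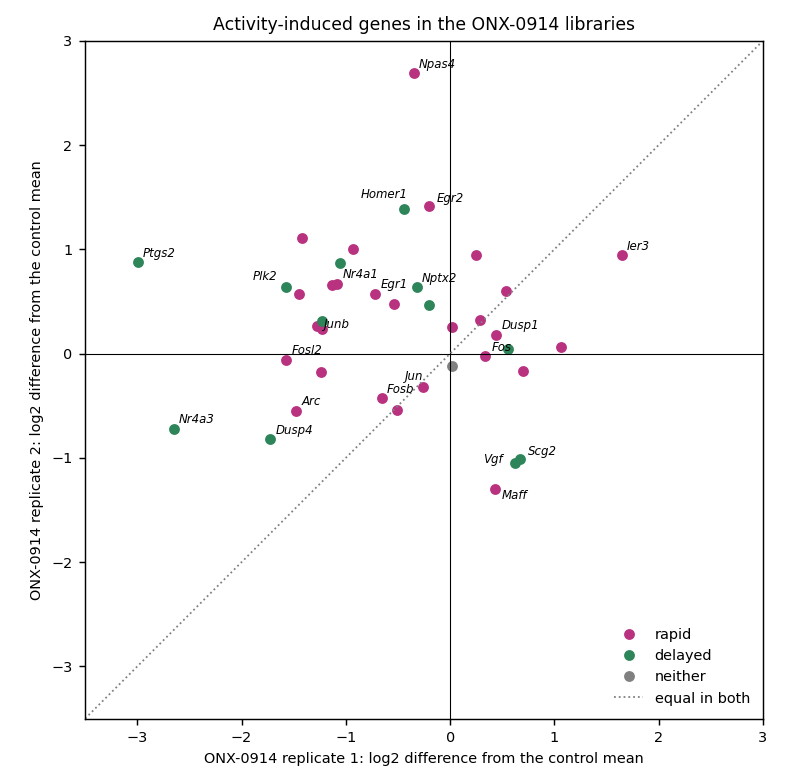
Log2 difference from the control mean in ONX-0914 replicate 1 (horizontal axis) and ONX-0914 replicate 2 (vertical axis), 1 point per tested member, coloured by class. Most points lie above the dotted line of equal values, with Npas4 and Ptgs2 furthest above it and Scg2, Vgf and Maff below, and Arc, Nr4a3 and Dusp4 are low in both libraries.

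Set against control one library at a time, with the spread taken from the other groups and the lone library assumed to vary like them, ONX-0914 replicate 1 had 15 members lower and 5 higher at an edgeR FDR of 0.05, beside 19% of all genes. ONX-0914 replicate 2 had 8 lower and 11 higher, beside 51.2% of all genes. Arc, Dusp4 and Nr4a3 were among the members lower than control with either library alone. The share of all genes with the same or the opposite direction in both libraries was not counted for these fits. Arc had a Log2FC of -1.49 (SE 0.191) in replicate 1 and -0.56 (SE 0.153) in replicate 2, Dusp4 -1.77 (SE 0.261) and -0.85 (SE 0.181), and Nr4a3 -2.69 (SE 0.209) and -0.74 (SE 0.143). Members with opposite directions in the 2 libraries included Egr1, Egr3, Klf10, Nr4a1, Dusp6, Plk2, Ier5, Ptgs2, Scg2 and Vgf. For Egr1, the Log2FC was -0.74 (SE 0.190) in replicate 1 and 0.56 (SE 0.153) in replicate 2, and for Scg2 it was 0.67 (SE 0.111) and -1.02 (SE 0.120). Against DMSO, 20 members were called for both libraries, 13 lower in both (Fos, Fosb, Fosl2, Jun, Junb, Egr2, Egr4, Nr4a1, Nr4a2, Nr4a3, Dusp4, Btg2 and Arc), Ier3 higher in both and 6 opposite, beside 17% and 46% of all genes called for replicates 1 and 2.

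The differences between DMSO and control libraries were larger for rapid than for delayed members. In DMSO against control, the median Log2FC was 0.77 over 27 tested rapid members, with 26 above 0, and 0.17 over 12 delayed members, with 9 above 0. Both DMSO libraries lay above all controls for 20 rapid members (74.1%) and 5 delayed members (41.7%), against 15.7% of all genes tested. The 5 delayed members were Nr4a2, Nr4a3, Dusp6, Homer1 and Scg2. The rapid exception with a negative Log2FC was Ier3 (-0.88, SE 0.684), and Jund, in neither class, had a Log2FC of 0.06 (SE 0.189). In ONX-0914 against DMSO the medians were -0.89 for rapid and -0.16 for delayed members, and in ONX-0914 against control 0.12 and 0.03. These values depended on single ONX-0914 libraries. Without ONX-0914 replicate 1 the rapid and delayed medians were -0.52 and -0.078 against DMSO and 0.24 and 0.38 against control, so that the order against control turned. Without ONX-0914 replicate 2 they were -1.53 and -1.31 against DMSO and -0.59 and -0.77 against control. Within the ONX-0914 pair, 15 of 27 rapid and 8 of 12 delayed members differed by at least 2-fold. Nr4a2, Nr4a3, Dusp4, Rgs2 and Gadd45g can also be counted as rapid, and then the medians in DMSO against control were 0.70 (32 members) and 0.17 (7 members). The members of a class are not replicates, and the difference between the classes was described and not tested. The classes were also set with earlier results of these data known, so their difference is no independent result.

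**Figure D5:**
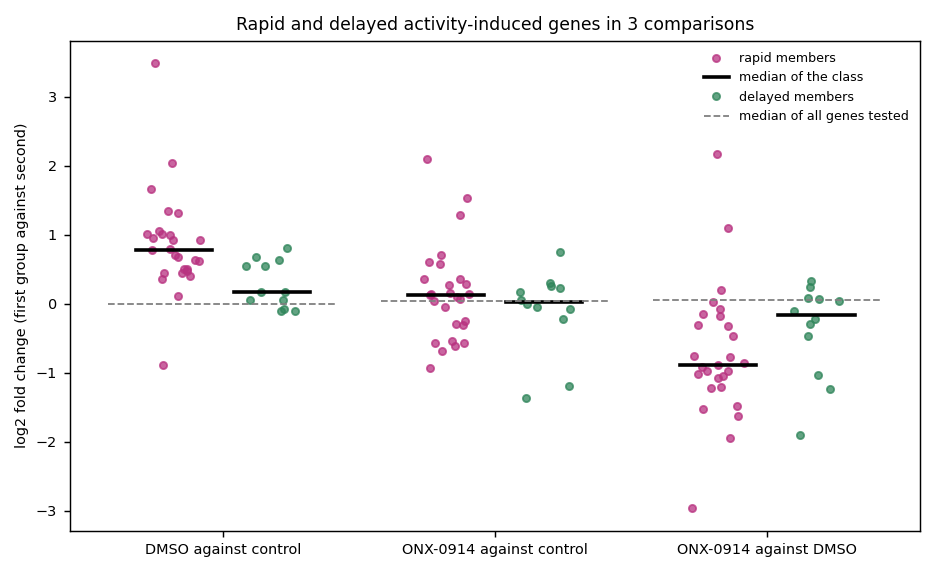
Log2FC of each rapid and delayed member (points) in the 3 comparisons, with the class median as a black bar and the median of all genes tested as a dashed line. In DMSO against control the rapid median is 0.77 and the delayed median 0.17, and in ONX-0914 against DMSO they are -0.89 and -0.16.

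Genes upstream of the members and further activity-induced genes were examined as lists. Of 24 tested upstream regulators (kinases, factors of the CREB, SRF and MEF2 families and their coactivators), edgeR called 0 in each comparison. Over all genes, the called share was 0.0152% to 0.114%. In DMSO against control 0 regulators had an unadjusted p under 0.05, beside 1.48% of all genes higher and 1.17% lower. At these shares, counts of 0 among 24 genes say little. The median Log2FC of the regulators in DMSO against control was 0.02. The regulators with the smallest p there were the CREB family factors Atf1 (Log2FC 0.63, SE 0.285) and Crem (0.52, SE 0.243). In ONX-0914 libraries, Map2k1, the kinase above ERK, had 368 and 249 CPM against 613 to 743 CPM in control (Log2FC -1.17, SE 0.224, edgeR FDR 0.0756) and was also lowest against DMSO (-1.18, SE 0.240). Prkacb, a catalytic subunit of protein kinase A, had 406 CPM in both ONX-0914 libraries against 269 to 326 in control (Log2FC 0.47, SE 0.169). At an unadjusted p under 0.05, 1 regulator was higher and 3 lower in ONX-0914 against control, beside 10.6% and 8.04% of all genes, and 1 higher and 4 lower against DMSO, beside 8.08% and 6.65% of all genes.

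Of 34 further activity-induced genes tested, edgeR also called 0 in each comparison, beside the same small shares of all genes. In DMSO against control 8 were higher and 0 lower at an unadjusted p under 0.05, beside 1.48% and 1.17% of all genes, and 14 lay above all control libraries (41.2%, against 15.7% of all genes), with a median Log2FC of 0.16. Errfi1, an inhibitor of the EGF receptor, had 91.5 and 83.9 CPM in DMSO against 51.2 to 59.5 in control libraries (Log2FC 0.68, SE 0.163), and Nfil3, a bZIP repressor, 14.2 and 15.7 against 7.91 to 8.56 CPM (0.87, SE 0.243). Both were thus higher in DMSO libraries, like Fos and Arc. In ONX-0914 against control 6 were higher and 3 lower (10.6% and 8.04% of all genes), led by Nptx1, a neuronal pentraxin related to Nptx2 (314 and 528 CPM against 1450 to 1537 CPM, Log2FC -1.84, SE 0.266, edgeR FDR 0.0510), and Sorcs3, a sorting receptor of the postsynapse (-0.95, SE 0.162, edgeR FDR 0.0728). Against DMSO 5 were higher and 8 lower (8.08% and 6.65% of all genes), with Nptx1 (-1.87, SE 0.281) and Errfi1 (-1.10, SE 0.181) at the smallest p.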

How the data were processed

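RNA was extracted from hippocampi of CD1 mice, and directional libraries were sequenced single-end. The authors deposited 1 table of raw counts for each library. According to the submitters' processing notes, the tools were Trimmomatic 0.39, STAR 2.7.3a and featureCounts 2.00 with the genome build GRCm39; the annotation and the strand setting are not given in the sources used here. Without the strand setting, counts of genes that overlap on opposite strands (Junb and Prdx2, Dusp1 and Ergic1) are uncertain. The deposited counts were not normalized. Lines for unassigned reads (8.57% to 10.4% per library) stayed out of library sizes and tests. Symbols came from the GENCODE M21 annotation for 52083 of 55416 identifiers, which hold 99.8% of the counts, and exon lengths from the same annotation. No coordinates are given for genes, since the reference was of another build.

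For the tests, edgeR 4.0.16 (R 4.3.3) was run on these counts: filterByExpr over 3 groups, TMM scaling, and glmQLFit and glmQLFTest on group means, with p-values adjusted by Benjamini-Hochberg over the 13152 genes tested (threshold 0.05). Log2FC values use a prior count of 0.125, and log2 differences per library a prior count of 2. CPM values use TMM-scaled library sizes. The members, lists and classes were chosen with earlier results of these data known. Values in every library are given for 12 set members and for the 5 with the smallest p in each comparison, 17 in all, and for the lists the 2 smallest p are named; Plk2, Ptgs2 and other members were named after their values were seen. DESeq2 1.42.0, other scaling and filters, the 2 compared groups alone, a replicate block and leaving out each library were tried as alternatives. The fits were tested on simulated data. Electrophysiology was not analysed here.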

Additional observations from a re-analysis of the deposited data

How the results depend on the processing

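The number of members past an FDR of 0.05 depended on the setting. In DMSO against control it was 0 with edgeR on 7 libraries (11 at an unadjusted p under 0.05), 1 with DESeq2, 2 without the filter on low counts and 14 with only the groups compared, and 0 to 14 when single libraries were left out. In ONX-0914 against control it was 0 (6 at an unadjusted p under 0.05), 2 with DESeq2, 3 without the filter and 0 to 20 without single libraries. In ONX-0914 against DMSO it was 1, then 5 with DESeq2, 4 without the filter, 0 with total counts, 0 with only the groups compared and 0 to 28 without single libraries. The highest counts came without ONX-0914 replicate 1 or 2, in fits where the ONX-0914 group held 1 library. Over all genes, edgeR on 7 libraries called 15, 2 and 6 in ONX-0914 against control, DMSO against control and ONX-0914 against DMSO, DESeq2 362, 5 and 229, edgeR without the filter 578, 11 and 297, and edgeR with only the groups compared 3, 141 and 0. The cause of these differences in count was not tested.

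Without single libraries, the median Log2FC of rapid members ranged from -0.59 to 0.24 in ONX-0914 against control and from -1.53 to -0.52 in ONX-0914 against DMSO, and that of delayed members from -0.77 to 0.38 and from -1.31 to -0.078, with the lowest values without ONX-0914 replicate 2 and the highest without ONX-0914 replicate 1. Total counts moved the median of all genes from 0.05 to 0.19 in ONX-0914 against control and to 0.18 in ONX-0914 against DMSO, where the median over members was 0.24 and -0.46. Several members changed sign when single libraries were left out. In ONX-0914 against control the Log2FC then ranged from -0.74 to 0.56 for Egr1, -0.59 to 2.01 for Egr2, -0.035 to 0.34 for Fos, -0.45 to 1.38 for Homer1, -1.33 to 0.24 for Junb, -0.48 to 2.79 for Npas4, -0.43 to 0.56 for Nptx2, -1.12 to 0.67 for Nr4a1, -1.02 to 0.67 for Scg2 and -1.07 to 0.61 for Vgf. In ONX-0914 against DMSO it ranged from -1.14 to 0.70 for Homer1, -1.46 to 1.80 for Npas4, -1.19 to 0.50 for Scg2 and -1.01 to 0.67 for Vgf, and in DMSO against control from -0.17 to 0.23 for Dusp4 and -0.25 to 0.085 for Vgf. Vgf in ONX-0914 against control, close to 0, was also negative with DESeq2 (-0.020), RLE size factors (-0.015) and only the groups compared (-0.0073).

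The sources used here do not say that a replicate number marks a shared mouse or day, so the numbers were not taken to pair the libraries. Between libraries with the same number, deviations from the group means had r from -0.0963 to 0.0640. In a group of 2 libraries these deviations mirror each other, so the values cannot decide whether a day was shared. With the replicate block, edgeR called 0 members in each comparison, and the Log2FC of Dusp4 and Vgf in DMSO against control was -0.11 and 0.24, that of Egr1, Nr4a1, Scg2 and Vgf in ONX-0914 against control -0.028, -0.13, -0.23 and -0.34, and that of Vgf in ONX-0914 against DMSO -0.58. At this depth, Egr2 and Atf3, with 3 counts or fewer in some libraries, allow only wide intervals.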
